A study of Mus musculus with 24 samples.

Results

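The genes of the LIF and Stat3 pathway examined here were Lif, Lifr, Il6st, Jak1, Jak2, Stat3, Socs3 and Gbx2. Their members in the data were the accessible-chromatin intervals that overlapped a member's gene body, as annotated in GRCm38.p6, extended by 20 kb on each side. The rule used position alone, and 190 of the 299780 intervals of the table for untreated cells and 177 of the 272268 intervals of the table for inhibitor-treated cells fell under it. Each interval was 201 bases wide.

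The data were ATAC-seq libraries, which read out open chromatin by where Tn5 transposase can cut and tag DNA, from the mouse embryonic stem cell line E14, kept on gelatin in a serum medium that contained LIF. The cells were wild type (WT) or one of 2 Smad2 knockout (KO) lines, Smad2_KO1 and Smad2_KO2, all in the E14 background. Each line was sampled untreated (Ctrl) or after 12 h with 200 nM of INK128, which inhibits the kinase mTOR and is used here to pause the cells (Paused). There were 24 libraries, 4 in each of 6 groups, made from 50000 cells a library, and LIF was in the medium of every group, so no group was without the ligand of the pathway. The labels do not say whether the 4 libraries of a group came from separate cultures, so p-values measure the spread between these libraries, which may be technical. Nor do they say whether Ctrl and Paused libraries of the same number shared a culture. A call made in both treatments may therefore not be an independent repeat.

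LIF, a cytokine of the interleukin 6 family, binds the receptor chain encoded by Lifr, which pairs with gp130, the product of Il6st. The kinases Jak1 and Jak2 on the receptor chains then phosphorylate Stat3, which pairs with itself, enters the nucleus and binds DNA at TTCNNNGAA sites. In mouse embryonic stem cells this signal holds the cells in self-renewal, with Gbx2, a homeobox gene, among its known targets, while Socs3, itself induced by Stat3, binds gp130 and the kinases and shuts the signal down. Smad2 carries signals of the Nodal and activin branch of the TGF-beta family, a separate pathway.

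Sequences upstream of the annotated starts of 3 members are shown because the intervals that follow lie on or near them, or because they hold the motif. They are RefSeq sequence of GRCm38.p6 from the minus strand, where all 3 genes lie, read 5′ to 3′ toward the start. For Gbx2, chr1:89931177-89931426 is given, with the 197 bases inside the Paused interval over the gene start in capitals. For Stat3, chr11:100939595-100939790 is given, upstream of the annotated gene body, with the 40 bases inside the Paused interval over the gene start in capitals. For Socs3, 25 bases at chr11:117969504-117969528 are given, with the match to the Stat motif in capitals. They lie upstream of the annotated start used here but inside the annotated gene body.
Gbx2: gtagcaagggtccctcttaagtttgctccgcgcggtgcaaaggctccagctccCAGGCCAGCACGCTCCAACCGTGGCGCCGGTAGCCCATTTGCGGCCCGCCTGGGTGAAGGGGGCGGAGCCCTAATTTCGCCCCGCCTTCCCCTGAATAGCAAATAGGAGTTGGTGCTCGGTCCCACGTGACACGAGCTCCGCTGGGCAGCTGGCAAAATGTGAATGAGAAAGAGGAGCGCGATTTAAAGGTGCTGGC
Stat3: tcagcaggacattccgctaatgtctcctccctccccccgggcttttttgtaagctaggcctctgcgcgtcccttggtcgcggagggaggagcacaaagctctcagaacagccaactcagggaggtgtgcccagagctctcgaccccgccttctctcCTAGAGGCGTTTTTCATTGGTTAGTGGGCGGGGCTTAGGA
Socs3: aaccagccTTCTTAGAAgggagggg

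The motif TTCNNNGAA, which reads the same on both strands, was searched in the 250 bases before each annotated start. The 8 genes had 9 such windows, since Lifr has 2 annotated starts, and 1 of the 9 held a match, the one printed for Socs3, whose first base lies at position −154 from the start. Over all 32851 RefSeq windows of that length 7.02% held the motif. CAGACA, an element bound by Smad proteins, searched on both strands, was in 1 of the 9 windows, at Lifr, and in 17.1% of all windows. A match describes letters in a window and is not shown to be a bound site, and the absence of a match says only that these letters are not in that window. The member windows had a median GC content of 63.6%, against 52.4% over all windows. Deposited intervals overlapped 7 of the 9 windows in each table, and those of Lif and Socs3 were overlapped by none.

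Values are normalized signal, the reads of a library in an interval multiplied by 1 scaling factor for that library. Reads recovered within the intervals numbered 11772458 to 16525762 per Ctrl library and 11456986 to 20007829 per Paused library. In the Paused table most KO libraries were deeper, with 13173783 to 20007829 reads against 11456986 to 14763067 in WT. The strongest interval inside Smad2, the deleted gene, ranged from 301.2 to 410.2 over the 12 Ctrl libraries and from 336 to 534 over the 12 Paused libraries, and was called in neither. Of the intervals inside Smad2, 0 of 7 were called in Ctrl and 2 of 11 in Paused. Which part of the gene was deleted is not given in the sources used here, so these values are no check of the knockout. All 5 embryonic stem cell markers had an interval within 1 kb of their start, but so did 2 of 3 trophoblast markers and every marker of the other lists in Ctrl, so these intervals do not tell the cell types apart. Among them, the intervals at T, a mesendoderm gene, and Thy1, a fibroblast gene, were lower in both KO lines in both tables, and the interval at Col1a1, another fibroblast gene, was lower in Paused. The summed signal of the 3 fibroblast markers was 369 to 387 in Ctrl WT libraries against 294 to 332 in Smad2_KO1 and 306 to 345 in Smad2_KO2, and in Paused 514 to 623 against 408 to 453 and 411 to 499.9. The third of them, Col1a2, was not called, with Ctrl means of 50.0, 49.5 and 52.2 in WT, Smad2_KO1 and Smad2_KO2. Their part in the results that follow was not tested, and in bulk samples fewer cells of a type and less open chromatin per cell cannot be told apart.

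For the comparison of each KO line with WT, limma was fitted on log2(value + 1) of the whole of each table, and an interval was called when the Benjamini-Hochberg adjusted p was under 0.05 in both KO lines with the same sign. A fold change is on that log2(value + 1) scale, KO minus WT, and understates the change of weak intervals. In Ctrl, 183 of the 190 member intervals had a value of 10 or more in at least 4 libraries and were tested, and 10 were called, 4 higher and 6 lower in KO. That is 5.46% of those tested, against 7.15% of all tested intervals (3.95% higher and 3.2% lower). In Paused, 175 of 177 were tested and 21 were called, 14 higher and 7 lower, which is 12.0% against 13.9% of all tested intervals (9.01% higher and 4.92% lower). The shares lay near those of all intervals in both tables, so the 8 genes did not stand out as a list. At 11 Ctrl intervals the 8 KO libraries did not overlap the 4 of WT, 4 higher and 7 lower, which 7.48% of all intervals showed (4.16% higher and 3.32% lower). In Paused there were 17, 11 higher and 6 lower, beside 11.5% of all (7.25% and 4.2%). The median log2 fold change over the members was 0.03 in Ctrl and 0.17 in Paused, beside 0.08 and 0.12 over all tested intervals.

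The calls were spread over the genes. In Ctrl, Lif, Lifr and Il6st had 1 higher interval each, Jak1 had 1 lower, Jak2 and Gbx2 had 2 lower each, Socs3 had 1 in each direction and Stat3 had none of 19 tested. In Paused, Lifr had 7 higher and 1 lower of 50 tested, Lif had 2 higher and 1 lower, Il6st and Jak1 had 2 higher each, Stat3 had 1 in each direction, Socs3 had 2 lower, and Jak2 and Gbx2 had 1 lower each. Most tested intervals lay more than 1 kb from a start, as the plot of fold change along each gene shows. Of the intervals within 1 kb of an annotated start, none of 8 was called in Ctrl, and 2 of 9 were called in Paused, at Stat3 and near the second start of Lifr.

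**Figure D1:**
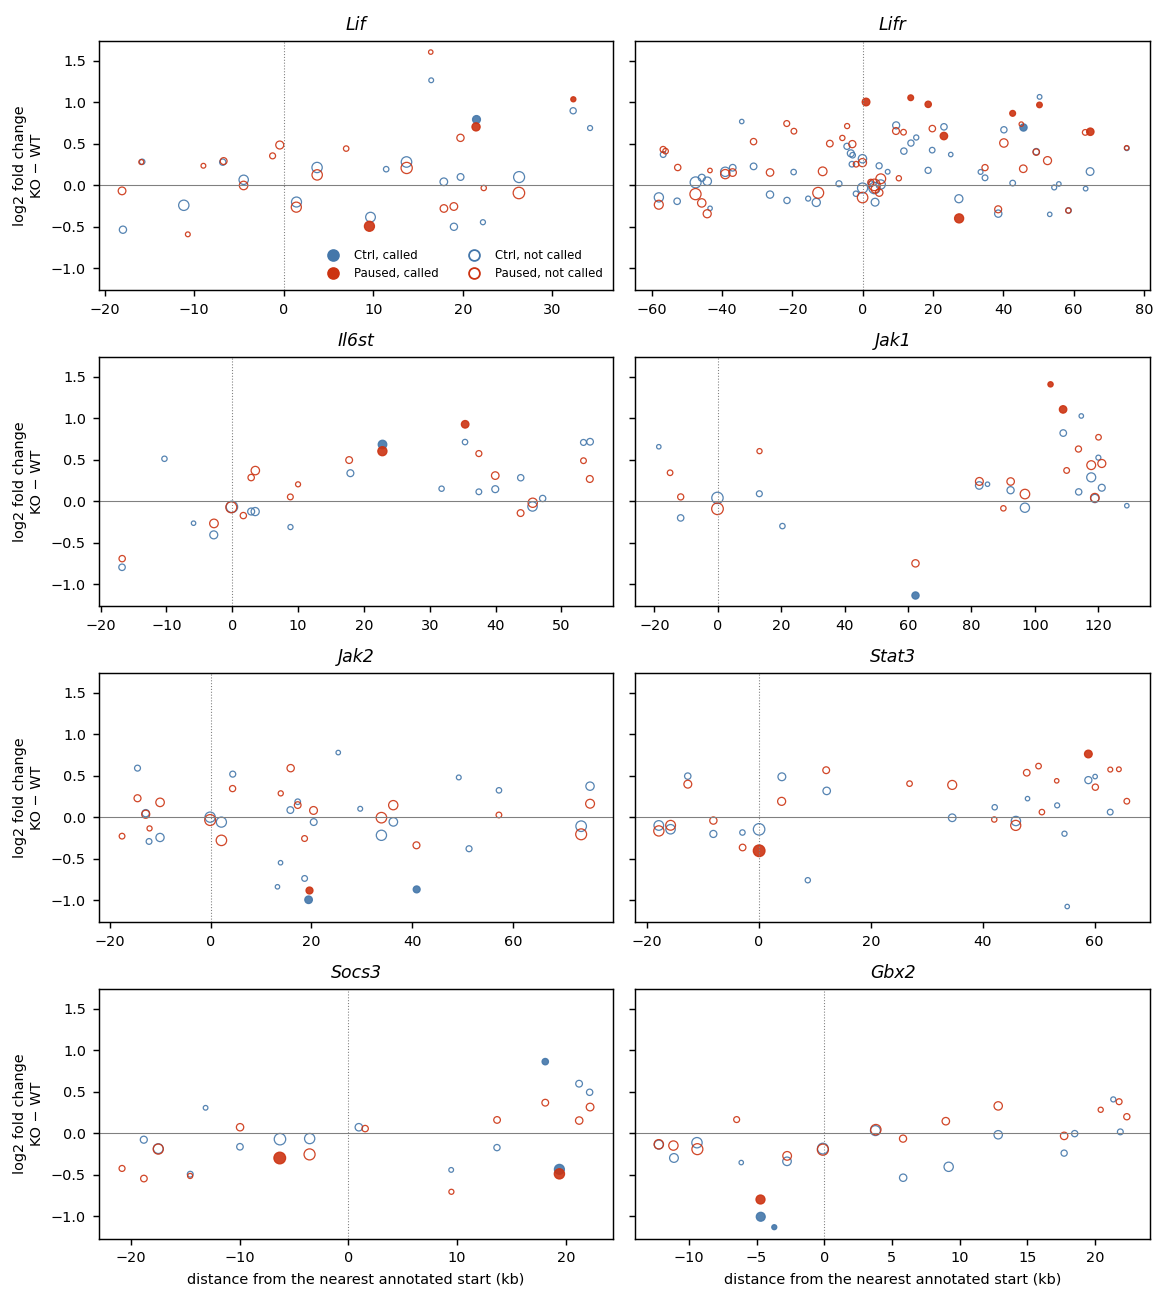
Log2 fold change on log2(value + 1), mean of the 2 KO lines minus WT, of every tested member interval (vertical axis) against its distance in kb from the nearest annotated start of its gene, positive toward the gene (horizontal axis). Blue is Ctrl and red is Paused, filled circles were called in both KO lines, and larger circles have a higher mean signal. In Paused a filled point lies over the Stat3 start and another 0.96 kb after the second Lifr start, and Gbx2 has filled points below 0 upstream in both tables.

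In Paused the direction of the calls went with the level of the interval. Of the 27 Paused member intervals with a mean signal of 100 or more, 4 were lower and 0 were higher, and of the 94 below 30, 6 were higher and 1 was lower. Over all Paused intervals the same was seen, with 16.0% lower and 3.09% higher at 100 or more, and 1.79% lower and 9.46% higher below 30. The 10 Ctrl calls of the members, which are few, showed no such order. They were 2 higher and 3 lower of 122 below 30, 2 and 2 of 37 between 30 and 100, and 0 and 1 of 24 at 100 or more. Over all Ctrl intervals the order was present, with 6.60% lower and 2.14% higher at 100 or more, and 1.83% lower and 3.49% higher below 30. With size factors in place of the authors' scaling, the median of all intervals was 0.01 in both tables, and the split of member calls was 3 higher and 9 lower in Ctrl and 12 and 12 in Paused. No member interval passed between the 2 KO lines in either table (0 calls at adjusted p under 0.05 in limma, edgeR and DESeq2, and 0% of all intervals in limma). At unadjusted p under 0.05 in limma, 6 member intervals passed in Ctrl and 5 in Paused, where 3.28% and 1.97% of all intervals did. The plot of one line's fold changes against the other's shows both values of every tested interval, where the rule for a call and the shared WT libraries place called intervals near the diagonal. Taken singly, Smad2_KO1 had 21 called intervals in Ctrl and 37 in Paused (11.6% and 19.4% of all intervals), and Smad2_KO2 had 15 and 29 (10.7% and 19.3%). Of the 190 Ctrl and 177 Paused member intervals, 20 and 39 had a false discovery rate under 0.05 in the authors' deposited tables, against 12.2% and 21.6% of all intervals, and the 10 and 21 called here were all among them. Over all intervals, 20051 of the 20159 Ctrl calls and 36106 of the 36293 Paused calls were too. Both rest on the same libraries, so this overlap is no independent check.

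**Figure D2:**
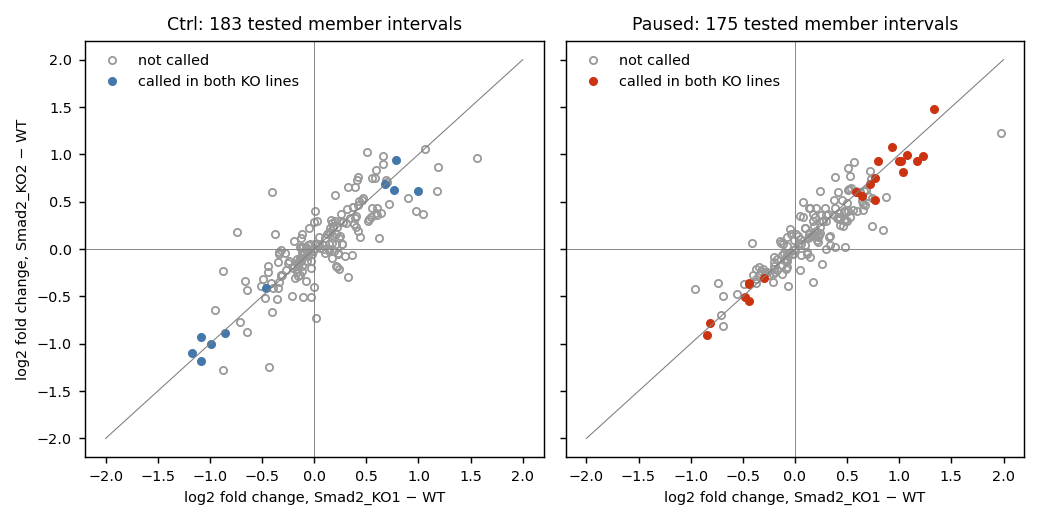
Log2 fold change against WT of each tested member interval in Smad2_KO1 (horizontal axis) and Smad2_KO2 (vertical axis), in Ctrl (183 intervals) and Paused (175 intervals), on log2(value + 1). Filled points were called in both KO lines and the diagonal marks equal values. The 2 lines share the WT libraries, so their fold changes are not independent.

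Signal at the gene starts differed more between genes than between lines. In Ctrl WT libraries the Stat3 start had the highest interval, 389.7 ± 23.9 (SD, n = 4), followed by Il6st at 357 ± 56.3 and Jak1 at 332 ± 43.4, and neighbours in this order overlapped between libraries. Gbx2 followed at 239 ± 28.0, then Jak2 at 156 ± 38.1 and Lifr at 146 ± 40.9, which overlapped each other, and the interval nearest the Socs3 start, at 0.96 kb, had 30.4 ± 8.40. In Paused WT libraries Stat3 led with 528 ± 59.0 and Jak1 followed with 428 ± 37.4, the lowest Stat3 library overlapping the highest of Jak1. Below them Gbx2 at 308 ± 53.1, Il6st at 260.4 ± 33.4, Jak2 at 249 ± 66.4 and Lifr at 198 ± 32.3 each overlapped the next, and the Lif interval, at −0.45 kb, was the weakest at 32.4 ± 6.24. No interval lay within 1 kb of the Lif start in the Ctrl table as used here, or of the Socs3 start in the Paused table. Since all intervals have 1 width, these levels compare between genes without a length correction.

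**Figure D3:**
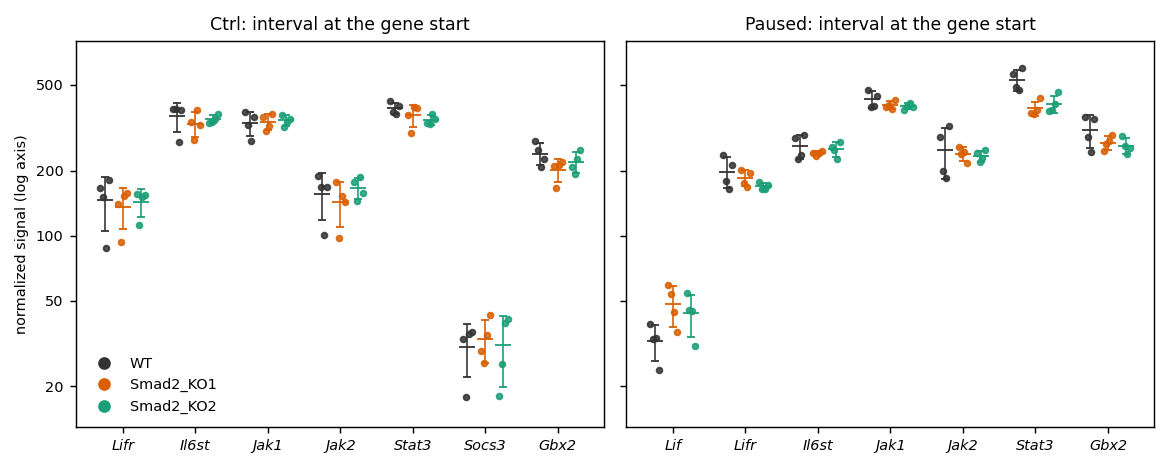
Normalized signal (log axis) of the strongest interval within 1 kb of each member's annotated start, in Ctrl and Paused. Points are the 4 libraries of WT (black), Smad2_KO1 (orange) and Smad2_KO2 (green), bars are the mean and SD. Stat3 in Paused has WT values of 471 to 596 above all 8 KO values, and the lines overlap for the other genes of both panels.

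At Lif, the gene for the ligand, the strongest interval lay 26.3 kb downstream of the start, beyond the gene, and was not called in either table. It had 243.9 ± 14.5 (SD, n = 4) in Ctrl WT, 270.1 ± 36.8 in the first KO line, Smad2_KO1, and 253.2 ± 17.1 in Smad2_KO2. In Paused, an interval at 9.57 kb, inside the gene, was lower in both KO lines, and its call was kept in every alternative run (chr11:4267039-4267239). Its WT libraries had 199, 158, 163 and 168, those of Smad2_KO1 127, 112, 134 and 131, and those of Smad2_KO2 111, 115, 108 and 133. All 8 KO values were below all 4 WT values (log2 fold change −0.44 and −0.55, SE 0.11, limma adjusted p 0.00444 and 0.000521). The Ctrl interval at 9.69 kb, which overlaps it in part and was singled out with its values in view, also had every KO value below every WT value, with means of 128.9, 97.3 and 100.3, but passed in Smad2_KO1 (−0.41, adjusted p 0.0247) and missed in Smad2_KO2 (−0.36, adjusted p 0.0517) in limma.

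A weaker Lif interval, 21.5 kb from the start and downstream of the gene (chr11:4278964-4279164 in Ctrl), was higher in both KO lines in both tables. In Ctrl it had 25.6, 18.8, 27.4 and 32.4 in WT, 53.0, 60.7, 57.2 and 39.3 in Smad2_KO1, and 57.1, 33.7, 34.0 and 37.2 in Smad2_KO2. The groups did not overlap, but the lowest KO2 values were close to the highest WT value. The fold changes were 0.99 and 0.61 (limma adjusted p 0.000325 and 0.0294), and the call was lost without WT replicate 2 (larger adjusted p 0.115), without Smad2_KO2 replicate 1 (0.186), with loess offsets along the mean signal (0.054), with the compared groups alone (0.0507) and with the DESeq2 Wald test (0.142). In Paused the matching interval had 0.72 and 0.68 (adjusted p 0.00326 and 0.00508, limma) and was called in every alternative run, although 1 KO library, at 39.4, lay below the highest WT library, at 40.8. The remaining Lif call of Paused, a weak interval 32.4 kb from the start with a WT mean of 7.23 and KO means of 15.4 and 14.5, had 1.07 and 0.99 (limma adjusted p 0.0144 and 0.0234). It was lost without WT replicate 2 (0.0671) or 3 (0.0661), Smad2_KO1 replicate 1 (0.057), or Smad2_KO2 replicate 1 (0.0814) or 2 (0.0673). Loess offsets (0.234), the compared groups alone (0.0504) and the DESeq2 Wald test (0.123) also ended that call, which was kept in 15 of 23 alternatives. Its Paused WT libraries had 9.72, 4.29, 4.32 and 10.6, so it met the limit of 10 for testing mainly through KO libraries. The matching Ctrl interval passed in Smad2_KO1 (1.17, limma adjusted p 0.00209) but not in Smad2_KO2 (0.62, 0.128).

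Lifr encodes the LIF-binding receptor chain and is the longest stretch examined after Jak1. Neither its start interval nor its strongest interval, 3.36 kb into the gene, was called. The strongest interval had 340.5 ± 42.3 (SD, n = 4) in Ctrl WT libraries, 335 ± 35.6 in those of Smad2_KO1 and 327 ± 19.4 in those of Smad2_KO2. In Paused it had 384 ± 23.2, 385 ± 11.1 and 385 ± 35.9, so its means lay within 1 SD of each other. What was called at Lifr was weak: the 7 higher intervals of Paused had WT means of at most 24.2. The clearest lay 0.96 kb after the second annotated start (chr15:7141400-7141600). Its WT libraries had 32.4, 12.9, 23.7 and 19.9, those of Smad2_KO1 39.0, 50.8, 41.5 and 34.8, and those of Smad2_KO2 45.0, 46.5, 49.4 and 41.6. All KO values were above all WT values (log2 fold change 0.93 and 1.07, SE 0.20, limma adjusted p 0.00111 and 0.000243), in every alternative run. Intervals 13.7 kb and 18.6 kb from the second start were higher too, by 1.17 and 0.93 and by 1.02 and 0.93, and were lost with the DESeq2 Wald test (larger adjusted p 0.103 and 0.0798). The first of these also lost its call without Smad2_KO2 replicate 3 (0.0775) or replicate 4 (0.0569) and with loess offsets (0.164). Its WT libraries had 7.56, 8.59, 11.9 and 6.62, so it met the limit of 10 for testing mainly through KO libraries. In Ctrl the intervals matching those at 13.7 kb and 18.6 kb were not called, with fold changes of 0.47 and 0.54 and of 0.23 and 0.12. The other 4 higher intervals had WT means of 8.39 to 24.2 and KO means of 17.8 to 39.5.

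A Lifr interval at 27.4 kb was lower in Paused (WT mean 93.0, KO means 67.8 and 72.0, fold changes −0.44 and −0.36, limma adjusted p 0.0145 and 0.0453), with all KO values below all WT values. The matching Ctrl interval was not called (−0.16 and −0.17, limma adjusted p 0.649 and 0.612). The Paused call was lost in 12 of 23 alternatives. They included leaving out WT replicate 1, where the larger adjusted p was 0.155, WT replicate 2 (0.0763), any single library of Smad2_KO1 (0.0501 to 0.0533), or Smad2_KO2 replicate 1 (0.129), 2 (0.0557) or 3 (0.109), and also scaling by library totals (0.0692), loess offsets (0.0841) and the compared groups alone (0.0691). The 1 Lifr call of Ctrl, an interval at 45.7 kb with WT mean 20.0 and KO means 34.4 and 31.0, had fold changes of 0.77 and 0.62 (limma adjusted p 0.00698 and 0.0322). It was lost without WT replicate 3 (larger adjusted p 0.0933) or 4 (0.0856) and without Smad2_KO2 replicate 2 (0.0908) or 3 (0.0863). The call was also lost with loess offsets (0.0718), the compared groups alone (0.0547), edgeR's quasi-likelihood test (0.0655) and the DESeq2 Wald test (0.196), so that 15 of 23 alternatives kept it. The Paused interval at the same place was not called (0.20 and 0.19, limma adjusted p 0.444 and 0.49).

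Il6st encodes gp130, the signal-transducing chain shared by the interleukin 6 family. Its start interval was not called, with 357 ± 56.3 (SD, n = 4) in WT, 329 ± 42.6 in the first KO line, Smad2_KO1, and 346 ± 15.3 in Smad2_KO2 of Ctrl. An interval inside the gene, 22.8 kb from the start (chr13:112486775-112486975 in Ctrl), was higher in both KO lines in both tables. Its Ctrl WT libraries had 42.7, 41.2, 39.4 and 36.7, those of Smad2_KO1 69.3, 72.0, 46.9 and 75.1, and those of Smad2_KO2 62.1, 65.5, 71.2 and 61.4. In Paused the WT libraries had 55.1, 65.5, 56.1 and 55.6, those of Smad2_KO1 96.0, 91.5, 88.1 and 87.4, and those of Smad2_KO2 78.9, 94.5, 87.6 and 84.2. KO and WT did not overlap in either table, with 1 Ctrl library, Smad2_KO1 replicate 3 at 46.9, well under its group. The differences were 0.68 and 0.69 in Ctrl (limma adjusted p 0.00223 and 0.00215) and 0.64 and 0.56 in Paused (0.000495 and 0.0018), and both calls held in every alternative run. A weaker interval at 35.4 kb was higher in Paused by 1.03 and 0.82 (adjusted p 0.00112 and 0.00838, limma), with KO2 replicate 4 at 20.8 inside the WT range of 14.0 to 25.9. That call was lost without Smad2_KO2 replicate 1 (larger adjusted p 0.064) or replicate 2 (0.0511). The matching Ctrl interval was not called (0.69 and 0.73, limma adjusted p 0.137 and 0.118).

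The 2 kinase genes had start intervals that did not pass the test in either table. Jak1 had 332 ± 43.4, 336 ± 28.2 and 342 ± 19.1 at its start in the 3 lines of Ctrl, and 428 ± 37.4, 403 ± 16.7 and 398 ± 12.2 in Paused (SD, n = 4). Jak2 had 156 ± 38.1, 143 ± 33.5 and 166 ± 19.0 in Ctrl, where WT replicate 3 at 101 and Smad2_KO1 replicate 2 at 97.7 were low, and 249 ± 66.4, 239 ± 17.4 and 234 ± 13.4 in Paused. The same WT replicate 3 was low at the starts of Lifr, at 87.6, and Il6st, at 272.7. Near the 3′ end of Jak1, an interval 108.9 kb from the start (chr4:101156212-101156412) was higher in Paused KO cells. Its WT libraries had 10.8, 16.1, 20.5 and 25.2, those of Smad2_KO1 44.7, 39.9, 43.2 and 40.7, and those of Smad2_KO2 26.0, 50.2, 42.7 and 27.4. The lowest KO2 library was just above the highest WT library. It was higher (log2 fold change 1.23 and 0.98, SE 0.22, limma adjusted p 0.000127 and 0.00165), in every alternative run. In Ctrl the matching interval had means of 13.7, 22.1 and 27.8 and passed in Smad2_KO2 (0.98, adjusted p 0.00331) but not in Smad2_KO1 (0.66, adjusted p 0.0517) in limma, and it passed in both lines without WT replicate 2 (0.0263) or Smad2_KO1 replicate 1 (0.0378), scaled by library totals (0.0497) and with the replicate block (0.0465). A weaker Paused interval at 105 kb, with means of 6.52, 15.9 and 17.1, was higher by 1.33 and 1.48 (limma adjusted p 0.00776 and 0.00346) and was lost without WT replicate 4 (0.0566), which had 1.32, with loess offsets (0.0869) and with the DESeq2 Wald test (0.0594). Its WT libraries were all under 10, so it entered the test through the KO libraries alone.

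At the lower calls of both kinase genes the WT libraries differed among themselves. Inside Jak1 at 62.4 kb, the Ctrl WT libraries had 31.0, 15.2, 67.9 and 80.9, while the KO libraries ranged from 11.6 to 25.3. WT replicates 3 and 4 were high and replicates 1 and 2 lay in or near the KO range. The fold changes were −1.08 and −1.18 (limma adjusted p 0.00934 and 0.00471), and the call was lost without WT replicate 3 (larger adjusted p 0.0623), WT replicate 4 (0.101) or Smad2_KO1 replicate 4 (0.0529) and with the DESeq2 Wald test (0.0601). The same split stood in the Paused table, with 24.8, 19.3, 59.3 and 71.5 in WT, where the interval missed in Smad2_KO1 (−0.69, limma adjusted p 0.0553). It passed there in both KO lines without WT replicate 1 (0.0219), WT replicate 2 (0.00401) or Smad2_KO1 replicate 2 (0.0366), and with size factors (0.0311), loess offsets (0.0219), the replicate block (0.0418) and edgeR's quasi-likelihood test (0.00656). Inside Jak2 at 19.5 kb, WT had 39.5, 27.8, 88.7 and 57.2 in Ctrl and 25.9, 23.6, 57.2 and 47.7 in Paused, against KO values of 19.1 to 29.1 and 14.6 to 24.2. Again WT replicates 3 and 4 were the high ones in both tables and the groups overlapped. Its calls (fold changes −0.99 and −1.0 in Ctrl, limma adjusted p 0.00211 and 0.00197, and −0.84 and −0.91 in Paused, 0.011 and 0.0062) held in every alternative in Ctrl and were lost in Paused without WT replicate 3 (larger adjusted p 0.0679). Another interval, 40.9 kb into Jak2, had the same order of WT libraries in Ctrl, 25.6, 24.2, 47.1 and 51.8, and its call (−0.85 and −0.89, adjusted p 0.0157 and 0.0121, limma) was lost without WT replicate 3 (0.0691) or 4 (0.0983), Smad2_KO1 replicate 4 (0.0896) or Smad2_KO2 replicate 3 (0.0597). Its match in Paused was not called (−0.41 and −0.27, limma adjusted p 0.299 and 0.509).

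Stat3, the transcription factor of the pathway, had its strongest interval over the start, the one that covers the capital letters of its sequence above. In Paused (chr11:100939434-100939634) the WT libraries had 558, 486, 471 and 596, those of Smad2_KO1 372, 367, 383 and 432, and those of Smad2_KO2 378, 384, 405 and 462. Each of the 8 KO values was below all 4 WT values. In log2 fold change Smad2_KO1 stood at −0.44 (SE 0.09, limma adjusted p 0.000351) and Smad2_KO2 at −0.37 (0.00199). In Ctrl the same interval had 389.7 ± 23.9, 361 ± 43.8 and 344 ± 17.4 (SD, n = 4), the lines overlapped, and the fold changes of −0.12 and −0.18 did not pass (adjusted p 0.426 and 0.2, limma). Whether the KO difference was larger in Paused than in Ctrl was not tested. The Paused call was kept in 22 of 23 alternatives and lost with offsets fitted along the mean signal, where the mean fold change was −0.21 (larger adjusted p 0.0778). Those offsets take out the typical fold change at each signal level, and over all Paused intervals of 100 or more the median fold change was −0.13. The other Stat3 call of Paused lay 58.9 kb downstream, inside the neighbouring gene Stat5a (chr11:100880552-100880752), and was higher in KO, with means of 25.3, 42.6 and 42.0, by 0.77 and 0.75 (adjusted p 0.00308 and 0.0039, limma). That call was lost with the DESeq2 Wald test (larger adjusted p 0.066). The matching Ctrl interval was not called (0.42 and 0.47, limma adjusted p 0.175 and 0.135).

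Socs3, the feedback inhibitor, had weak signal at its start and strong signal upstream. Its strongest interval lay at −6.31 kb in Paused (chr11:117975577-117975777), where WT had 579.7, 483, 451 and 520.5, Smad2_KO1 had 420.0, 368, 418 and 451, and Smad2_KO2 had 371, 385, 421 and 467. The KO lines were lower (log2 fold change −0.29 and −0.31, SE 0.09, limma adjusted p 0.0141 and 0.0106). A KO library, at 467, was above the lowest WT library, and another, at 450.9, was level with it. The call was lost with offsets along the mean signal, where the mean fold change was −0.10 (larger adjusted p 0.327), and without WT replicate 1 (0.0593), Smad2_KO1 replicate 2 (0.0857) or Smad2_KO2 replicate 1 (0.0573). In Ctrl the matching interval had 375 ± 19.2, 350.4 ± 22.9 and 363 ± 29.7 and was not called.

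An interval 19.4 kb from the Socs3 start, downstream of the gene (chr11:117949863-117950063 in Paused), was lower in both tables. In Paused, WT had 194, 155, 177 and 254, Smad2_KO1 had 147, 116, 138 and 151, and Smad2_KO2 had 129, 138, 145 and 129, so the groups did not overlap. It was lower (log2 fold change −0.48 and −0.50, SE 0.12, limma adjusted p 0.00398 and 0.00262), in every alternative run. In Ctrl, WT had 176, 114, 152 and 183, Smad2_KO1 had 121, 80.2, 124 and 128, and Smad2_KO2 had 111, 115, 132 and 106. There WT replicate 2 lay within the KO range, and the call (−0.46 and −0.41, adjusted p 0.018 and 0.0382, limma) was lost without WT replicate 1 (larger adjusted p 0.121), 3 (0.0517) or 4 (0.156), Smad2_KO1 replicate 2 (0.143), or Smad2_KO2 replicate 1 (0.094), 2 (0.0828) or 4 (0.108), and with loess offsets (0.0912). A weak neighbour at 18.1 kb was higher in Ctrl by 0.78 and 0.94 (adjusted p 0.0423 and 0.0137, limma), with 6.41 in WT replicate 1 and 14.3 to 15.3 in the other 3 WT libraries. That call was lost without WT replicate 1 (larger adjusted p 0.215), Smad2_KO1 replicate 2 (0.0516), 3 (0.144) or 4 (0.159), or Smad2_KO2 replicate 3 (0.0692) or 4 (0.0507). It was also lost with size factors (0.0765), loess offsets (0.136), the compared groups alone (0.0733), edgeR's quasi-likelihood test (0.0852) and the DESeq2 Wald test (0.199), and 12 of 23 alternatives kept it. The matching Paused interval was not called (0.37 and 0.36, limma adjusted p 0.225 and 0.237).

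Summed over its intervals, the signal around Socs3 in Paused was 1269.9 to 1483 in the WT libraries and 1098 to 1254 in the 8 KO libraries. Its 16 intervals covered 3216 bases in each line, with a mean per interval of 87.7 in WT, 73.3 in Smad2_KO1 and 73.6 in Smad2_KO2. The 2 groups of libraries did not overlap in that sum. In Ctrl the sums overlapped, at 947 to 1084 in WT and 823 to 1009.6 in KO.

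At Gbx2, the homeobox target of the pathway, an interval upstream of the gene was lower in both KO lines in both tables. It lay at −4.69 kb in Ctrl (chr1:89935765-89935965). There the WT libraries had 121, 94.1, 107 and 93.8, those of Smad2_KO1 45.3, 39.1, 58.1 and 53.1, and those of Smad2_KO2 33.1, 57.3, 73.3 and 59.4. Every KO value was below every WT value (log2 fold change −1.08 and −0.93, SE 0.17, adjusted p by limma 1.36e-05 and 0.000123). In Paused the matching interval (chr1:89935793-89935993) had 135, 76.2, 78.8 and 130 in WT, 58.0, 49.8, 49.2 and 75.5 in Smad2_KO1 and 50.9, 49.5, 70.7 and 66.7 in Smad2_KO2. WT fell into 2 high and 2 lower libraries, and the lowest of them, at 76.2, stood just above the highest KO library, at 75.5. The KO lines were lower (log2 fold change −0.81 and −0.78, adjusted p 0.000694 and 0.00116, limma). Both calls were kept in all 23 alternatives of their table.

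A weaker Gbx2 interval at −3.69 kb was lower in Ctrl too. It had 17.1, 13.4, 18.6 and 29.1 in WT, 6.84, 6.17, 7.50 and 11.6 in Smad2_KO1 and 9.02, 5.46, 8.50 and 11.1 in Smad2_KO2, without overlap. The fold changes were −1.17 and −1.09 (limma adjusted p 0.011 and 0.0188), and the call was lost without WT replicate 4 (larger adjusted p 0.115) or Smad2_KO2 replicate 2 (0.0805). The start interval, which covers the capital letters of the Gbx2 sequence and also lies at the start of the uncharacterised gene LOC102637806, was not called. It had 239 ± 28.0, 202 ± 23.8 and 219 ± 23.8 in Ctrl and 308 ± 53.1, 269.9 ± 19.4 and 261 ± 21.5 in Paused (SD, n = 4), with fold changes of −0.25 and −0.13 and of −0.18 and −0.22. In Paused it passed in both KO lines without WT replicate 3 (larger adjusted p 0.0298 in limma). Of the 16 tested Ctrl intervals around Gbx2, 4 had every KO value below every WT value, where 3.32% of all Ctrl intervals did, and 2 of these 4 were called. In Paused 1 of 15 had, beside 4.2% of all. Summed over its 17 Ctrl intervals, which covered 3417 bases, the signal was 1091 to 1255 in WT libraries and 837 to 1068 in KO libraries, without overlap, and means per interval were 67.5, 55.9 and 58.6. In Paused the Gbx2 sums overlapped, at 1175 to 1428 in WT and 1092 to 1277 in KO. Of the other genes, only Jak2 in Ctrl (1111 to 1189 in WT, 966 to 1108 in KO) and Socs3 in Paused had sums that did not overlap, and how often such sums separate at genes outside the list was not computed.

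**Figure D4:**
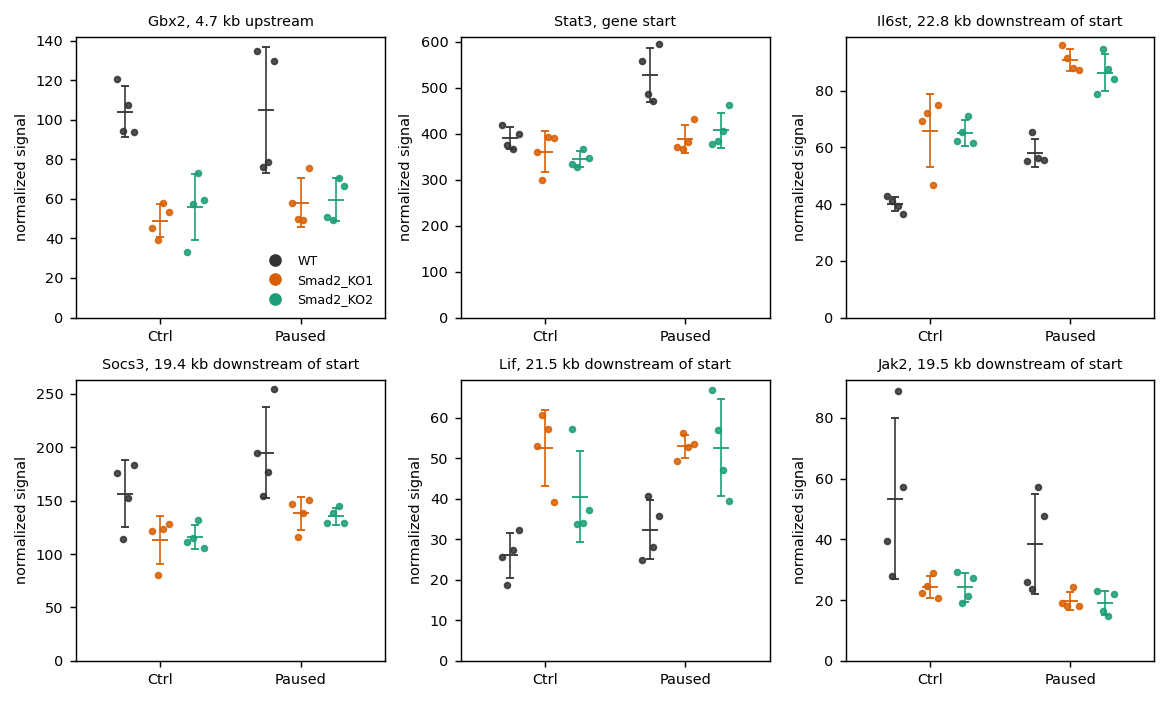
Normalized signal of 6 member intervals in Ctrl and Paused, with 1 point per library and bars for the mean and SD of 4 libraries, in WT (black), Smad2_KO1 (orange) and Smad2_KO2 (green). Distances are from the annotated start. Gbx2, Socs3 and Jak2 have lower and Il6st and Lif higher KO means in both tables, Stat3 is separated in Paused, and at Jak2 the WT points spread over the KO points.

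The tables for Ctrl and Paused cells hold different intervals and were scaled separately, so their levels are set side by side with no test. Intervals that overlapped by at least 50% of each were matched, 137 of the members and 215826 in all. The median log2 ratio of Paused to Ctrl means, each with 1 added, was 0.18 over the matched members in WT and 0.08 over all matched intervals. In Smad2_KO1 the medians were 0.24 and 0.10, and in Smad2_KO2 0.27 and 0.11. Strong intervals stood higher in Paused: of the 23 matched members with a Ctrl WT mean of 100 or more, all 23 had a ratio above 0 in WT, with a median of 0.37, beside 78.6% and 0.22 over all such intervals. Strong intervals without a match, the Il6st start interval among them, are not part of this count. The ratios in WT reached 0.89 at the Socs3 interval 3.56 kb upstream, 0.77 at the Lif interval at 13.7 kb and 0.67 at the Jak2 start. At the Gbx2 interval at −4.69 kb the WT ratio was 0.01.

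At the Stat3 start the WT mean was 389.7 in Ctrl and 528 in Paused, a log2 ratio of 0.44, while the ratios of the KO lines were 0.10 and 0.24. The strongest Socs3 interval, at −6.29 kb in Ctrl, had a ratio of 0.44 in WT and of 0.24 and 0.18 in the KO lines. At Il6st 22.8 kb into the gene the 3 ratios were 0.53, 0.46 and 0.40. Some strong member intervals had no counterpart. The Ctrl interval at −11.2 kb from the Lif start (chr11:4246296-4246496) had a WT mean of 182. The Paused interval at −12.7 kb from the nearest Lifr start (chr15:7116825-7117025), inside the annotated gene body, had a WT mean of 256. These intervals were overlapped by no interval of the other table as used here. The nearest intervals there began 453 and 551 bases away and had WT means of 14.1 and 49.2. Both were chosen with their values in view.

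**Figure D5:**
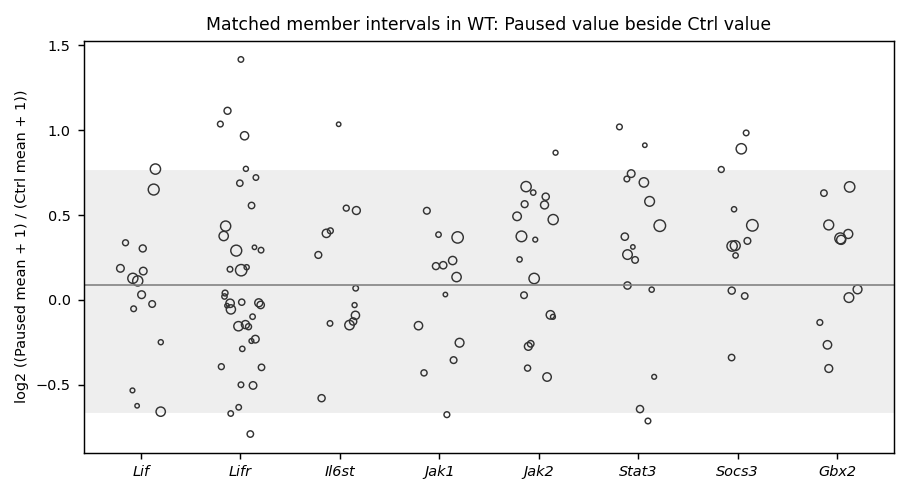
Log2 ratio of the Paused WT mean to the Ctrl WT mean, each with 1 added, of the 137 matched member intervals by gene, with larger circles for a higher Ctrl signal and horizontal scatter for legibility. The line is the median of all 215826 matched intervals, 0.08, and the band runs from their 5th to their 95th percentile, −0.66 to 0.76. Large circles lie mostly above the line at Socs3, Jak2 and Stat3.

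The wider pathway list held 33 other genes, 619 intervals in Ctrl and 560 in Paused. In Ctrl 40 of 580 tested were called, 19 higher and 21 lower, and in Paused 65 of 537, 38 higher and 27 lower, which is 6.90% and 12.1% beside the 7.15% and 13.9% of all intervals. The ligand and receptor genes had 10 of 133 and 20 of 125 called, the kinases, factors and adaptors 2 of 176 and 15 of 154, and the inhibitors 4 of 117 and 7 of 118. The 9 genes named as targets in embryonic stem cells had 24 of 154 in Ctrl and 23 of 140 in Paused. These came largely from few genes: Pramel7, one of a family of close copies between which reads may be split, had 7 and 5 higher, Bcl3 had 3 and 4 higher with 1 lower in Paused, and Myc had 6 and 4 lower, while Klf4, Klf5 and Tfcp2l1 had at most 1 call in each table.

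In Bcl3, a nuclear IκB family member, an interval 13.2 kb into the gene in Paused had 105, 104, 106 and 95.4 in WT, 181, 193, 170.2 and 174 in Smad2_KO1 and 155, 187, 162 and 136 in Smad2_KO2. The groups did not overlap. The fold changes were 0.80 and 0.63 (limma adjusted p 2.48e-06 and 8.98e-05), and 0.60 and 0.61 at the same place in Ctrl (0.00178 and 0.00157). Pim1, a kinase gene, had an interval at −4819 bases from its start whose Paused WT libraries had 73.4, 71.9, 65.8 and 63.6 and whose KO libraries ranged from 27.0 to 42.7. It was lower (log2 fold change −1.17 and −1.01, adjusted p 6.02e-06 and 5.9e-05, limma). In Junb, a gene of the AP-1 family, the Paused interval at −9305 bases had a WT mean of 109 and KO means of 55.5 and 61.0, with fold changes of −0.99 and −0.85 (adjusted p 1.85e-05 and 0.000148, limma). Ctf1, a cytokine that signals through the same receptor pair as LIF, had its start interval lower in Paused, at 319 ± 35.3 (SD, n = 4) in WT, 229 ± 14.3 in the first KO line, Smad2_KO1, and 216 ± 27.8 in Smad2_KO2 (log2 fold change −0.47 and −0.56, adjusted p 0.00076 and 0.000102, limma). Of all Paused intervals with a mean of 100 or more, as here, 16.0% were called lower. For the named intervals of the wider list no results of the alternative settings are given.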

How the data were processed

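Each of the 2 deposited tables, one for Ctrl and one for Paused, holds 12 libraries. The submitters' processing notes name FastQC, Trim Galore, Bowtie2 2.4.1, MACS3 3.0.3, DiffBind 3.16.0 and mm10 (GRCm38), with no role or order. The Tn5 shift and the treatment of duplicates and mitochondrial reads are not given in the sources used here, and each could move the signal of an interval. Per the file headers, the tables hold 1 normalized signal value per interval and library, and the authors' log2 concentrations and fold change and their p-value and FDR, of which the FDR alone was used. From the values, the authors' signal is a whole read count multiplied by 1 factor per library (0.8549 to 1.1551 in Ctrl, 0.7499 to 1.3243 in Paused). At least 99.89% of a library's values fell on such steps (tolerance 0.0055), so counts were recovered for edgeR and DESeq2.

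Columns were assigned by line and number in their headers and by treatment through the table. Gene bodies and starts came from the RefSeq annotation of GRCm38.p6. Distances run from the nearest annotated start to the interval's centre, and exon boundaries were not used here. The test was limma 3.58.1 in R 4.3.3 with a mean-variance trend on log2(signal + 1), for intervals with 10 or more in at least 4 libraries, with line as the only factor and Benjamini-Hochberg adjustment over each whole table. The code of the fit was run on simulated counts with 1 fixed dispersion for all intervals. That run cannot show how the fit behaves where WT libraries differ among themselves, and no result here rests on it. Alternatives were no filter, a pseudocount of 0.1, other scalings, offsets along the mean signal (loess), the compared groups alone, the KO libraries joined, a replicate block, edgeR 4.0.16, DESeq2 1.42.0 and each library left out. These made 23 settings in each table for a named interval. Where the KO libraries were joined, as 1 group or averaged by number, a kept call is of 1 pooled contrast against WT. Such a call is easier to pass and says nothing of each line. A fold minimum and smaller windows were applied to the counts of calls only and are not among the 23. Tables used Python 3.11.15, pandas 2.3.3 and numpy 2.4.6.

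Per gene and table the text could name the strongest interval within 1000 bases of a start, the strongest interval of the window, up to 3 called higher and 3 called lower by the larger adjusted p, and the matching intervals of the other table (overlap of at least 50% of each). Members, lists and tests were chosen with earlier results of these data known. Counting error only is covered by the depths given.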

Additional observations from a re-analysis of the deposited data

Results flagged for a closer look

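In 11 of the 180 groups of 4 libraries searched, 1 library stood far from the other 3 by Dixon's criterion, where chance alone flags about 1 in 20 groups, or 9.0 here. Of these 11, 5 concern intervals called in their table. At the Lif interval 21.5 kb from the start in Ctrl, Smad2_KO2 replicate 1 had 57.12 against 33.67 to 37.24 in the other 3. At the Il6st interval 22.8 kb into the gene in Paused, WT replicate 2 had 65.48 against 55.05 to 56.1. At the Jak2 interval at 40.9 kb in Ctrl, Smad2_KO2 replicate 3 had 13.81 against 20.04 to 20.93. Around Socs3 in Ctrl, Smad2_KO1 replicate 2 had 80.19 against 121.39 to 128.22 at 19.4 kb, and WT replicate 1 had 6.41 against 14.33 to 15.33 at 18.1 kb.

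The other 6 concern intervals that were not called. At the Il6st start in Ctrl, WT replicate 3 had 272.7 against 382.83 to 386.66, and the same library had 9.86 against 18.16 to 18.81 at the Lifr interval 18.6 kb from the second start. At the Lifr start in Ctrl, Smad2_KO2 replicate 2 had 111.94 against 150.86 to 155.32, and at the strongest Lifr interval in Paused, WT replicate 1 had 418.83 against 370.06 to 377.83. At Socs3 in Ctrl, WT replicate 2 had 17.91 against 33.11 to 35.59 at 0.96 kb, and Smad2_KO2 replicate 4 had 407.58 against 344.72 to 353.77 at −6.29 kb.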

How the results depend on the processing

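The count of 10 member intervals called in both KO lines in Ctrl became 28 with the 8 KO libraries as 1 group. It became 23 with the KO libraries of each number averaged. Those settings hold 1 contrast against WT and required no call in each line, and 17.6% and 12.4% of all intervals were called. The Ctrl count became 6 with the DESeq2 Wald test, beside 4.08% of all (the causes were not tested). It was 2 with a log2 fold change of at least 1, beside 1.51% of all, and 5 within the gene bodies, which holds fewer intervals. The 21 of Paused became 51 with the KO libraries as 1 group, beside 28.7% of all, and 1 with the fold minimum, beside 2.65%. In the main fits the shares of all intervals were 7.15% in Ctrl and 13.9% in Paused. With 1 library left out the Ctrl counts ran from 6 (without WT replicate 4, 4.92% of all intervals) to 13 (without WT replicate 2, 7.59%). The Paused counts ran from 15 (without Smad2_KO2 replicate 1, 10.8% of all) to 26 (without WT replicate 2, 14.8%). Between the KO lines the counts ran from 0 to 0 in both tables. The split into higher and lower calls, 4 and 6 in Ctrl and 14 and 7 in Paused, was 3 and 9 and 12 and 12 with size factors, 2 and 10 and 12 and 12 with edgeR, 2 and 7 and 8 and 6 with loess offsets, and 1 and 5 and 5 and 10 with DESeq2. With the compared groups alone it was 1 and 6 in Ctrl. Of the 27 named intervals called, 10 kept their call in all 23 alternatives, of the 31 not called 24 stayed so, and no call reversed. With the replicate number as a block, 13 and 25 intervals were called, beside 7.97% and 16.2% of all intervals. To see whether same-numbered libraries of different lines moved together, each line's mean was subtracted at every interval. Correlations of what remained ran from −0.01 up to 0.11 (Ctrl) and 0.19 (Paused), with means of 0.03 and 0.05. They are not correlations of the signal itself. Of 24 matches, 8 and 13 were best with their own number, where chance alone gives about 1 in 4. The main fit did not take the libraries as pairs, and whether libraries of the same number shared a batch was not tested. Intervals under about 30 rest on few reads.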
